A study of Mus musculus with 20 samples.

Results

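The response of mouse ventricles without *Dnmt3a* and *Dnmt3b* in cardiomyocytes to transverse aortic constriction (TAC) was read from 10 of the 20 arrays of the series, chosen by their sample labels, 6 from TAC-operated and 4 from sham-operated double knockout (DKO) mice. All DKO mice carried loxP-flanked alleles of both genes together with a Cre recombinase under the promoter of *Myl7*, the atrial myosin light chain, which removed exon 18 of *Dnmt3a* and exon 19 of *Dnmt3b*. The mice compared with them, called control (CTL), carried the same floxed alleles without Cre and contributed 4 sham and 6 TAC arrays. All mice were male, were operated on at an age of 10 to 12 weeks and gave left ventricular tissue 4 weeks later, with 1 Illumina bead chip array per mouse. Since whole ventricle was used, non-myocytes with intact methyltransferases contributed RNA, recombination in cardiomyocyte nuclei was not complete, and fewer cells of a type cannot be told apart from less RNA per cell.

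TAC narrows the aortic arch, so that the left ventricle ejects against a raised pressure. Cardiomyocytes answer such a load by growth and by expressing genes of the fetal heart, among them natriuretic peptides, β-myosin heavy chain and skeletal α-actin, while fibroblasts lay down collagen and other matrix, and genes of fatty acid oxidation and mitochondria are commonly reduced. DNMT3A and DNMT3B set methyl groups on cytosines that were unmethylated before, whereas DNMT1 copies existing methylation during replication.

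The 8 sham and the 12 TAC arrays were deposited as separately normalized sets, with median intensities of 47.5 and 58.6, so that surgery and set cannot be told apart in any difference between TAC and sham hearts. The values given here are linear intensities after quantile normalization over all 20 arrays. Probes differ in how brightly they bind, so that intensities are compared between arrays and never between probes. Olfactory and vomeronasal receptor probes, taken as genes that ventricle does not express, placed the near-background level at an intensity of 61.1, and 35.9% of the 45281 probes had a mean above it. Where a group mean lay below this level, the fold is given as a lower bound. The ventricular light chain *Myl2* had an intensity of 25843 ± 2006 in sham DKO (SD, n = 4) and of 29710 ± 2189 in TAC DKO hearts (SD, n = 6). *Myl4*, an atrial light chain, reached 1621 in TAC DKO replicate 2 and 4917 in replicate 3. It ranged from 336 to 508 in the remaining TAC DKO hearts and from 191 to 243 in sham DKO hearts. The sum over all 15 measured atrial markers ranged from 1670 to 2826 on sham DKO and from 1625 to 8307 on TAC DKO arrays. The probes called lower after TAC had a median intensity of 266 to 273 in sham DKO hearts, of 118 to 126 in TAC DKO replicates 1 to 4, and of 144 in replicate 5 and 150 in replicate 6.

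In TAC DKO hearts, 11 of 20 collagens, 17 of 37 matricellular and elastic fibre genes, 8 of 18 smooth muscle markers and 7 of 22 genes of the stress and fetal program were higher than in sham DKO hearts. In turn 11 of 28 genes of fatty acid uptake and oxidation, 8 of 22 of the citrate cycle and 9 of 30 in a list of chaperones and antioxidants were lower. Calls required a fold over 1.5 together with a limma p, adjusted by Benjamini-Hochberg over all probes, below 0.05. By this rule 1116 probes rose (2.46% of all probes tested) and 1934 fell (4.27%), naming 868 and 1438 genes. The intensities of the groups did not overlap for 1067 of the higher and 1820 of the lower probes, where 11.1% of all probes lay wholly above and 9.38% wholly below the sham values. Higher probes made up 36.6% of the called ones, but 4.67% when each array was only centred on its median, so that the balance of rises and falls depends on the scaling. Leaving out 1 array in at least 1 case ended the calls given below for *Acvr2a*, *Cacnb2*, *Ctsk*, *Ednrb*, *Fgf7*, *Gcnt1*, *Hand2*, *Hopx*, *Igfbp3*, *Pcna* and *Ppargc1b*. In the lists below a gene is represented by its probe of highest mean. By that probe, 3.99% of 19057 genes rose and 5.17% fell, with a median log2 fold change of 0.04. Among the 9632 of them above near-background 7.84% rose and 10.1% fell, with a median of 0.11.

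Probes of the same gene often gave different answers. Of 3258 genes with several probes above near-background, 408 had a probe that rose but only 43 rose by every such probe, and 759 had a probe that fell while 74 fell by every one. The log2 fold changes within a gene spanned a median of 0.39, and 29 genes had probes called in opposite directions. *Ttn*, the sarcomeric spring titin, had 9 such probes with log2 fold changes from -1.10 to 0.88. For the difference between the TAC effects of both genotypes the span within a gene was smaller, with a median of 0.15. Genes that rose by each of several probes included *Comp*, *Ciart*, *Tpm2*, *Timp1*, *Dkk3*, *Fhl1*, *Igf1*, *Ccnd2*, *Ccn2* and *Myh7*. Genes that fell by each included *Lgals4*, *Fh1*, *Atp5a1*, *Hsp90aa1*, *Nampt*, *Mdh1*, *Hspa8*, *Pdhb* and *Vegfa*.

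Of 22 measured genes of the stress and fetal program, 7 rose and 1 fell, with a median log2 fold change of 0.24 that became -0.06 when arrays were centred on their median. *Acta1*, the skeletal α-actin of the fetal heart, had intensities of 2002, 4216, 5918 and 10279 in sham DKO hearts and a lowest, median and highest value of 10760, 17084 and 22438 in TAC DKO hearts. The groups did not overlap, and the sham arrays spread widely. It rose by 1.80 on the log2 scale (standard error 0.29, adjusted p = 3.76e-05), and an exact two-sided permutation test of 4 against 6 arrays gave p = 0.00952, the smallest it allows. The atrial natriuretic peptide *Nppa* was at 7281, 10203, 11403 and 17667 in sham and between 22438 and 29615 in TAC DKO hearts, with a median of 29011. It rose by 1.32 (standard error 0.32, adjusted p = 0.00265), close to the top of the scale, where the highest normalized intensity was 31764. *Nppb*, the brain natriuretic peptide, ranged from 6375 to 7929 in sham and from 7236 to 16728 in TAC DKO hearts. These ranges overlapped, and its log2 fold change of 0.48 was not called (standard error 0.20, adjusted p = 0.0819).

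The window of 250 bases upstream of the *Acta1* start is shown because this gene led the fetal program, and because binding sites of the serum response factor (CArG box) and of TEAD factors (M-CAT motif, CATTCC) are known from actin promoters. It lies at chr8:123894776-123895025 on the minus strand of GRCm38.p6, from RefSeq. Capitals mark a CArG box and a CATTCC, searched on both strands.
Acta1: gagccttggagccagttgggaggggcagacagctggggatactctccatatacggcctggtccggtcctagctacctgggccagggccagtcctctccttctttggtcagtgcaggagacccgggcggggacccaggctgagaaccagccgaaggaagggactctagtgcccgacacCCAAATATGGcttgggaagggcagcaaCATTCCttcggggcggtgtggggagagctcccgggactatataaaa
Such windows hold a CArG box in 1.47% and a CATTCC in 12.6% of 32851 RefSeq promoters. The corresponding window of *Nppa*, at chr4:148000472-148000721 on the plus strand, matched neither motif.

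*Myh7*, the slow β-myosin heavy chain, had intensities of 137, 121, 115 and 98.5 in sham DKO hearts and of 146 to 490 in TAC DKO hearts, with a median of 194. All 3 of its probes above near-background rose, by log2 fold changes of 1.05 and 0.99 and, for the dimmest, of at least 0.695. The probe of highest mean lost its call without sham DKO replicate 3 or 4 (adjusted p = 0.0562 and 0.0703) or TAC DKO replicate 3 or 4 (adjusted p = 0.061 and 0.0618). *Fhl1*, a LIM protein of the stretch sensor at titin, was at 2644, 2235, 2706 and 2619 in sham and between 4615 and 11736 in TAC DKO hearts, with a median of 5489. Its 2 probes rose by 1.26 and 1.24 (adjusted p = 3.85e-05 and 5.55e-05). *Uchl1*, a deubiquitinating enzyme typical of neurons, rose by 0.86, the T-type calcium channel *Cacna1h* by 0.89 and the homeobox gene *Meox1* by 0.79. *Ankrd23*, a titin-binding ankyrin repeat protein, fell by 0.72. Its relative *Ankrd1* had intensities of 10760, 11597, 11520 and 15056 in sham and of 8440 to 14923 in TAC DKO hearts, with a median of 12530. The groups overlapped throughout, and TAC DKO minus sham DKO was -0.02 on the log2 scale (standard error 0.13, adjusted p = 0.939).

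**Figure D1:**
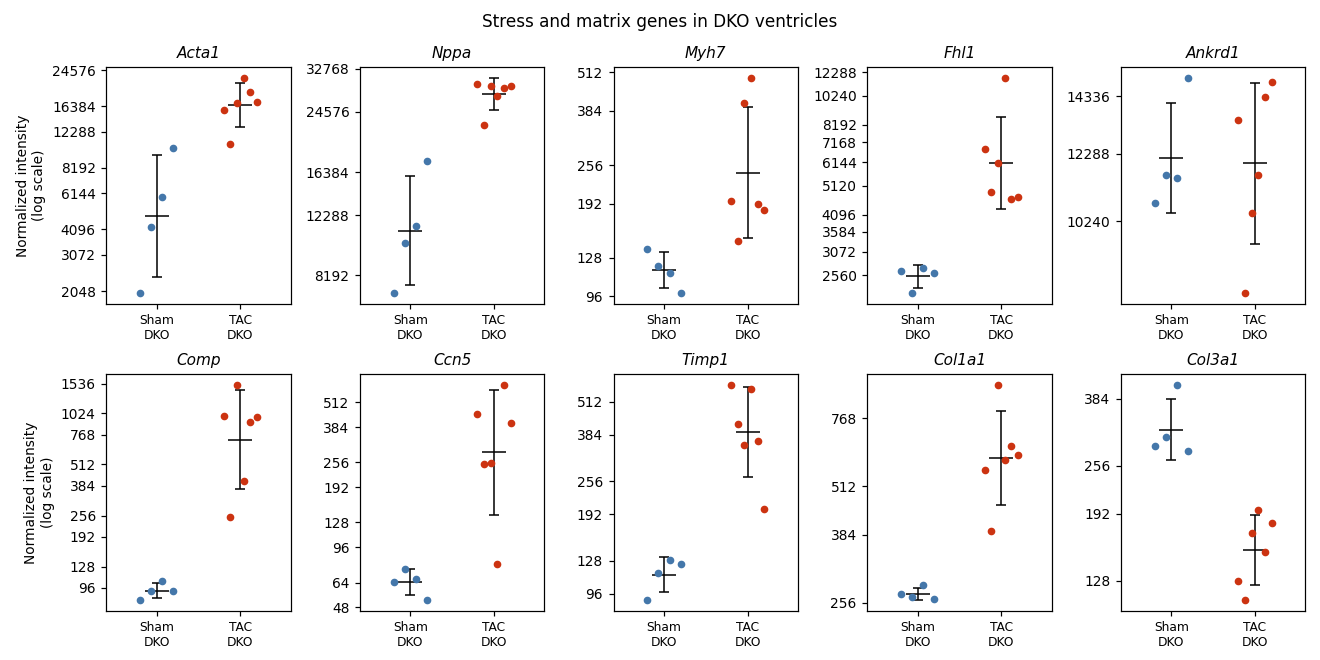
Normalized intensity on a log scale of 5 stress genes (upper row) and 5 matrix genes (lower row) in 4 sham DKO and 6 TAC DKO hearts. Points are arrays, the bar and whiskers are mean and SD of the log2 values. Groups are apart for all genes shown but *Ankrd1*, and *Col3a1* was the one lower after TAC.

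Matrix genes gave the largest rise. *Comp*, a cartilage matrix protein that binds collagen fibrils, had intensities of 81.4, 91.8, 105 and 92.4 in sham DKO hearts and a lowest, median and highest value of 251, 947 and 1504 in TAC DKO hearts. The groups were clearly apart, and it rose by 2.96 on the log2 scale (standard error 0.53, adjusted p = 0.000148) and by 1.65 with a second probe. *Ccn5*, a matricellular protein, was at 64.6, 74.7, 66.9 and 52.4 in sham hearts and between 79.5 and 624.5 in TAC DKO hearts, with a median of 330. One TAC array was thus near the sham values, and the rise was 2.17 (standard error 0.34, adjusted p = 3.05e-05). *Mfap4*, a microfibril protein, rose from 103 to 121 in sham to 183 to 676 in TAC DKO hearts, a log2 fold change of 1.86 (standard error 0.30). *Lox*, the enzyme that cross-links collagen and elastin, rose from 66.1 to 78.4 in sham to 138 to 421 after TAC, by 1.64 (standard error 0.25). Of 37 measured matricellular and elastic fibre genes, 17 rose and 1 fell, with a median of 0.50. The connective tissue growth factor *Ccn2* rose by 1.19 and 0.66 with its 2 probes, fibronectin (*Fn1*) by 1.06, biglycan (*Bgn*) by 1.09, *Loxl1* by 1.19, *Mfap5* by 1.32, elastin (*Eln*) by 0.90, a call lost without sham DKO replicate 4, and tenascin C (*Tnc*) by at least 0.64. *Postn*, periostin, and *Thbs4* were near background in both groups. *Sparc* rose by 0.77 with its probe of highest mean, while another of its probes had -1.23.

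Of 20 measured collagen genes, 11 rose and 1 fell, with a median log2 fold change of 0.61 that stayed between 0.23 and 0.53 under the other scalings. *Col1a1*, a chain of the main fibrillar collagen, was at 270, 264, 284 and 262 in sham DKO hearts and at 391, 608 and 935 as the lowest, median and highest TAC value. It rose by 1.17 (standard error 0.26, adjusted p = 0.00153), and the call was lost when arrays were centred on their median. *Col8a2* rose by at least 1.21, *Col5a1* by 1.19, *Col6a2* by 0.91 and *Col14a1* by 0.88. *Col1a2*, the partner chain of *Col1a1*, had a log2 fold change of -0.10 and did not pass. *Col3a1*, the other main fibrillar collagen of the heart, was lower after TAC, with 289, 306, 417 and 280 in sham and 114 to 196 in TAC DKO hearts. It fell by 1.05 (standard error 0.20, adjusted p = 0.000329), and in CTL hearts it fell as well (log2 fold change -0.81).

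Of 24 matrix proteases and their inhibitors, 7 rose and 0 fell by limma, with a median of 0.20. *Timp1*, an inhibitor of metalloproteases, was at 90.8, 115, 128 and 124 in sham DKO hearts and between 201 and 593 after TAC, with a median of 394. Its 2 probes rose by 1.79 and 1.74 (adjusted p = 0.000141 and 0.000216). The serine protease inhibitor *Serpina3n* rose by 1.56, *Mmp23* by 1.03, the procollagen peptidase enhancer *Pcolce* by 0.99, *Timp2* by 0.82, the gelatinase *Mmp2* by 0.79 and cathepsin K (*Ctsk*) by 0.64. *Mmp14* had 0.19 and did not pass. Further matrix and secreted proteins among the largest rises were *Angptl7* (2.21), *Serpinf1* (1.85), which encodes an antiangiogenic serpin, *Svep1* (1.70) and *Srpx2* (1.53). For *Angptl7* and *Serpinf1*, 1 of 2 probes above near-background rose. Rises of like size outside the matrix were those of complement *C4a* (1.57), the sulfate transporter *Slc13a4* (1.53) and *Chmp4b* (1.51), a subunit of the ESCRT complex.

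Of the secreted Wnt antagonists, *Sfrp1* had intensities of 145, 155, 173 and 118 in sham DKO hearts and of 332 to 588 after TAC. It rose by 1.57 (standard error 0.21, adjusted p = 3.45e-06), whereas a second probe of lower intensity had -0.17. *Dkk3* rose by 1.38. These were the 2 of 26 measured Wnt pathway genes that passed, and none fell (0 by limma). Of the TGF-β family, 3 of 29 rose, namely *Bmp4* (0.98), *Tgfb3* (0.92) and *Fstl1* (0.83), and the receptors *Bmpr1a* (-1.12) and *Acvr2a* (at least -0.33, near background after TAC) fell. *Tgfb1* and *Tgfb2* had 0.34 and -0.09 and did not pass. Of 16 IGF genes, 4 rose. *Igf1*, a growth factor of the heart, was at 109, 124, 113 and 111 in sham and between 190 and 336 in TAC DKO hearts. Both of its probes rose, by 1.13 and 1.06 (adjusted p = 6.34e-06 and 6.85e-06). The binding protein *Igfbp6* (1.06), the receptor *Igf1r* (1.02) and the adaptor *Irs2* (0.99) rose as well, and *Igfbp3* fell by 0.64. *Mtor*, a kinase that acts downstream of insulin and IGF signals, rose by 0.87 and 0.62 with its 2 probes.

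**Figure D2:**
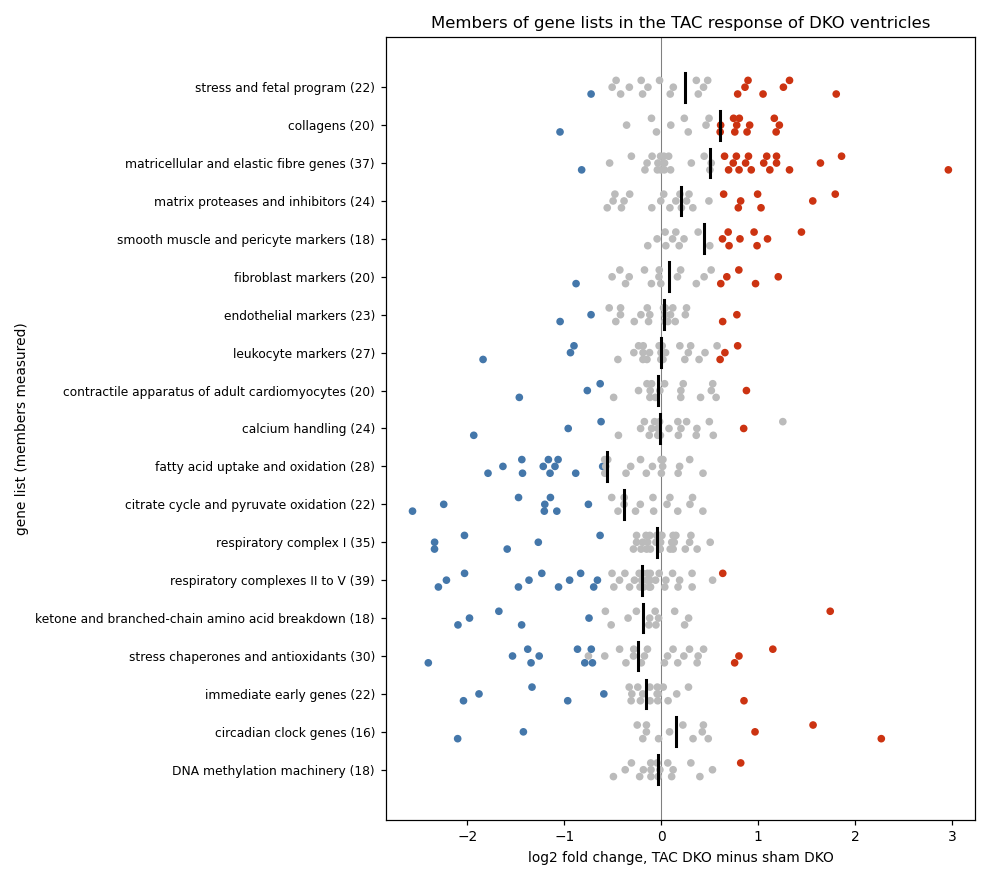
Log2 fold change between TAC DKO and sham DKO hearts (x axis) of each measured member of 19 gene lists (y axis), by its probe of highest mean. Red points rose, blue points fell, grey points were not called, and black lines are list medians, from 0.61 for collagens to -0.56 for fatty acid uptake and oxidation.

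Markers of the cells that share the ventricle with cardiomyocytes moved unequally. Of 18 smooth muscle and pericyte markers, 8 rose and 0 fell by limma, with a median of 0.44, and their summed intensity was between 7714 and 10142 on sham DKO and between 10942 and 18148 on TAC DKO arrays. *Tpm2*, the β-tropomyosin, rose by 1.10 with its probe of highest mean, from 189 to 290 in sham to 309 to 577 in TAC DKO hearts. A second probe rose by 2.67 (standard error 0.35, adjusted p = 2.89e-06), from 60.0 to 98.4 to 251 to 681. The smooth muscle myosin *Myh11* was at 146, 106, 107 and 93.2 in sham and at 212 to 365 in TAC DKO hearts, a rise of 1.45 (standard error 0.16, adjusted p = 4.39e-07). Of 20 fibroblast markers, 5 rose, 1 fell and 14 were not called, with a median of 0.08. Their summed intensity, in which bright probes weigh most, was 8768 to 10120 on sham and 13622 to 17309 on TAC DKO arrays. *Mgp*, a matrix Gla protein, rose by 1.21 and *Pi16* by 0.97. *Dpt* fell by 0.88, *Pdgfra* (-0.02) did not pass and *Ddr2* was near background in both groups. Of 23 endothelial markers 2 rose and 2 fell, and their sum ranged from 16155 to 18941 on sham and from 16146 to 18972 on TAC DKO arrays. The median of this list was 0.02 in DKO and -0.22 in CTL hearts. *Vwf*, the von Willebrand factor, rose by 0.78, a call lost without sham DKO replicate 1 or 4, while *Pecam1* (0.04) and *Cdh5* (-0.12) did not pass. The endothelial genes *Ptprb* and *Sox18* fell, with log2 fold changes of -1.52 to -0.975 and of -1.21 to -0.598 over all settings. Of 27 leukocyte markers 3 rose and 3 fell. *Lyz2*, lysozyme of macrophages, fell by 1.84 with its probe of highest mean, but a second probe had 0.43. *Adgre1* fell as well, with -1.33 to -0.697 over all settings. *C1qb* rose by 0.66, a call lost without TAC DKO replicate 4. *Fcer1g* rose by 1.62 to 2.77 over all settings, but its sham values fell into separate levels, as given below. *Csf1r* (-0.28) was not called, and the pan-leukocyte gene *Ptprc* was near background in both groups. The part of cell composition in the matrix and smooth muscle results was not tested.

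Of 15 atrial markers, *Myl4* (1.87), *Dkk3* (1.38) and the connexin *Gja5* (0.75) rose, while *Pam* and *Stard10* fell by 0.99 and 0.97. Without TAC DKO replicates 2 and 3, a choice made after seeing the data, *Myl4* rose by 0.92 (adjusted p = 0.0429), *Nppa* by 1.37 (adjusted p = 0.00762), *Acta1* by 1.95, *Comp* by 3.08 and *Dkk3* by 1.19, and 1026 probes rose and 1827 fell in all. Of 7 red blood cell genes 5 rose, with summed intensities of 36613 to 64796 on sham and of 70429 to 79629 on TAC DKO arrays. *Hba-a1*, an α-globin, rose by 0.77, although globin probes may bind the near-identical copies of these genes. *Hbb-bs*, a β-globin, had 6 probes with log2 fold changes from -0.94 to 1.02. No member of 16 skeletal muscle isoforms or of 12 adipocyte and mesothelial markers passed (0 by limma), and only 2 of the latter were above near-background.

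Among 20 genes in the list of the adult contractile apparatus, 3 fell and 1 rose by the probe of highest mean. By every probe above near-background, 2 fell and 0 rose. *Tnni3*, the cardiac troponin I, was at 2491, 2566, 2195 and 3051 in sham DKO hearts and between 715 and 1479 after TAC. It fell by 1.47 (standard error 0.23, adjusted p = 3.42e-05). *Myoz2*, a calcineurin-binding protein of the Z-disc, fell by 0.76 and myoglobin (*Mb*) by 0.63. Myoglobin binds oxygen and is counted in this list although it is not part of the contractile apparatus. *Myh6*, the fast α-myosin heavy chain, was at 22438 to 24869 in sham and at 9556 to 21793 in TAC DKO hearts by its brightest probe. Its log2 fold change of -0.49 did not reach the fold threshold (adjusted p = 0.0241), while a second, dimmer probe fell by 1.59 (standard error 0.19, adjusted p = 8.6e-07). Of 24 genes of calcium handling, 3 fell and 1 rose. *Pln*, phospholamban, which restrains the calcium pump of the sarcoplasmic reticulum, had intensities of 7601, 7162, 7309 and 8110 in sham DKO hearts and a lowest, median and highest value of 1619, 1721 and 2876 after TAC. It fell by 1.93 on the log2 scale (standard error 0.19, adjusted p = 6.76e-08). The pump *Atp2a2* itself had 3 probes with -0.17, -0.85 and 0.20, of which the second was called. *Ryr2*, the calcium release channel, fell by 0.96 with its probe of highest mean, from 6375 to 7062 in sham to 2892 to 4500 in TAC DKO hearts, and a dim second probe had 0.14. The channel subunit *Cacnb2* fell by 0.62. *Bin1*, a membrane-bending protein of T-tubules, rose by 0.85 with 1 of 2 probes above near-background.

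Of 22 potassium and sodium channels, 3 fell and 2 rose. *Kcna5* (-1.07), *Kcnd2* and *Kcnv2* (-0.78, not called without sham DKO replicate 1) fell. *Kcnh2*, the channel of the rapid delayed rectifier current, had 0.61 and, with a second probe, 0.78, and the first of these calls was lost without TAC DKO replicate 2, 3 or 6 and with either centring. The connexin *Gja5*, counted in this list too, rose by 0.75. *Kcnj2* (-0.33) and *Kcnip2* (-0.15) did not pass. Of 18 neurohormonal genes, angiotensin-converting enzyme (*Ace*, 0.83), *Ece1* (0.73), which makes endothelin, and the endothelin receptor *Ednrb* (0.63) rose. The angiotensin receptor-associated protein *Agtrap* and the natriuretic peptide receptor *Npr2* fell by 0.91 and 0.69. The other *Ednrb* probe had -1.04, so that this gene has no settled direction.

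Of 28 measured genes of fatty acid uptake and oxidation, 11 fell, 0 rose by limma and 17 were not called, with a median of -0.56 and of -0.46 to -0.95 under the other scalings and offset. *Pdk4*, the kinase that switches off pyruvate dehydrogenase, was at 9443, 3927, 6822 and 4480 in sham DKO hearts and at 1231, 1810 and 3278 as the lowest, median and highest TAC value. The groups were apart, and it fell by 1.63 (standard error 0.31, adjusted p = 0.000254). *Acot1*, an acyl-CoA thioesterase, fell by 1.79 with one probe and by at least 0.51 with another. *Hadha* and *Hadhb*, the subunits of the mitochondrial trifunctional protein, fell by at least 1.28 for *Hadha* and by 1.44 for *Hadhb*. *Hadha* was at 210, 183, 151 and 101 in sham DKO hearts and between 51.9 and 64.0 after TAC, where its mean was near background. The fatty acid transporter *Cd36* was at 110 to 132 in sham and at 50.3 to 69.8 after TAC and fell by at least 0.88. *Hadh* fell by at least 1.04, *Mlycd* by 1.17 and *Eci2* by 1.15. *Cpt1b*, which admits fatty acids to mitochondria (-0.55), *Fabp3* (-0.15) and *Acadm* (0.02) were not called. Of the regulators of these genes, *Klf15* fell by at least 0.41 and *Sirt3* fell by 0.73, and *Ppargc1b* rose by 0.61. *Ppara* was near background, and *Ppargc1a* (0.13), *Esrra* (-0.13) and *Esrrg* (-0.13) did not pass.

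Of 22 genes of the citrate cycle and pyruvate oxidation, 8 fell and 0 rose by limma, with a median of -0.38. *Mdh1*, a malate dehydrogenase, had intensities of 2043, 2349, 2018 and 2322 in sham DKO hearts and of 316 to 691 after TAC, with a median of 411. It fell by 2.24 (standard error 0.23, adjusted p = 1.4e-07), and both of its other probes fell. *Dld* fell by 2.57, *Idh2* by 1.47, *Sucla2* by at least 0.875, *Mdh2* by 1.20 and citrate synthase (*Cs*) by 1.08. *Pdhb*, a subunit of pyruvate dehydrogenase, fell by 1.14 and 2.38 and by at least 0.82 with its 3 probes. Fumarase (*Fh1*) fell by 0.75 with one probe and by 2.75 with another, from 4206 to 4847 to 2283 to 3526 and from 1198 to 1478 to 162 to 276. Both agreed in direction and differed in size. *Pdha1* (-0.08), *Idh3a* (0.06) and *Ogdh* (0.32) did not pass.

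In respiratory complex I, 6 of 35 members fell and 0 rose by limma, among them *Ndufb2* and *Ndufb9* (both -2.34), *Ndufb4* (-2.03) and *Ndufb5* (-1.59), while the median was -0.05. In complexes II to V, 11 of 39 fell and 1 rose. *Atp5a1*, the α-subunit of ATP synthase, was at 5818, 5232, 6054 and 5232 in sham DKO hearts and between 876 and 1599 after TAC. It fell by 2.30 (standard error 0.18, adjusted p = 1.99e-09), and a second probe, near background after TAC, fell by at least 0.97. *Sdhd* fell by 2.22, *Cox7b* by 2.03 and *Cox6c* by 1.47, and *Cox6b1* rose by 0.63. *Uqcrc1* (0.05) and *Atp5b* (-0.11) were not called, so that subunits of the same complex moved unequally. The largest fall of all was that of *ND4L*, a complex I gene of the mitochondrial genome, from 5707 to 6783 in sham to 306 to 633 in TAC DKO hearts (log2 fold change -3.86, standard error 0.22, adjusted p = 2.47e-11).

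Ketone bodies are oxidized by way of *Bdh1*, which rose. Its intensities were 151, 391, 185 and 378 in sham DKO hearts and 657, 792 and 1189 as the lowest, median and highest TAC value. It rose by 1.74 (standard error 0.23, adjusted p = 3.97e-06) and was the only rise among 18 genes of ketone and branched-chain amino acid breakdown. In that list *Mccc1* (-2.10), *Aldh6a1* (-1.98), *Acadsb* (-1.68), *Bckdhb* (-1.44) and *Mccc2* (-0.75) fell, and *Oxct1*, the next enzyme of ketone use, had 0.24. Of 25 genes of glucose uptake and glycolysis, *Pfkp* rose by 0.82, a call lost without any of 5 single arrays, and *Pfkfb2* and *Pgk1* fell by 0.98 and 0.85. The glucose transporters *Slc2a1* (0.30) and *Slc2a4* (-0.23) did not pass.

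Of 30 stress chaperones and antioxidants, 9 fell and 3 rose. *Hsp90aa1* was at 567, 948, 676 and 583 in sham DKO hearts and between 93.4 and 180 after TAC, a fall of 2.40 (standard error 0.17, adjusted p = 5.28e-10). *Hspa8*, the constitutive HSP70, fell with each of 3 probes, by 0.72, 2.94 and 0.84. The mitochondrial chaperonins *Hspe1* and *Hspd1* fell by 1.38 and 1.26. The small heat shock protein *Hspb1* (-1.53) and catalase *Cat* (-1.34) fell as well. *Gpx3* (1.15), the NADPH oxidase *Nox4* (0.80) and the extracellular superoxide dismutase *Sod3* (0.76) rose. *Nox4* is counted in this list although it is not an antioxidant enzyme. *Neat1*, a nuclear long non-coding RNA, was at 2842, 2552, 2572 and 1465 in sham and at 221 to 363 in TAC DKO hearts and fell by 3.02 (standard error 0.24, adjusted p = 2.79e-09). The lectin *Lgals4* fell by 2.69 and 2.46 with its 2 probes. *Saraf*, a regulator of calcium entry, fell by 2.61 with 1 of 3 probes, the complex I subunit *Ndufa5* by 2.43 with 1 of 2, and *Atp5md*, a small subunit of ATP synthase, by 2.27. The angiogenic factor *Vegfa* was at 4287, 4021, 4114 and 2530 in sham and between 952 and 1318 in TAC DKO hearts. It fell by 1.71 with this probe and by 0.63 with a second.

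Of 22 immediate early genes, which respond within minutes to a stimulus, 5 fell, 1 rose and 16 were not called. *Egr1* was at 4885, 7395, 4806 and 4249 in sham DKO hearts and between 724 and 2453 after TAC, with a median of 1244. It fell by 2.04 (standard error 0.29, adjusted p = 7.68e-06). *Fos* fell by 1.88, from 294 to 562 to 71.1 to 177, the phosphatase *Dusp1* by 1.33 and *Klf4* by 0.97, though a second *Klf4* probe had 0.02. *Ier3* rose by 0.85. *Jun* (0.28) did not pass, and *Myc* and *Nr4a1* were near background in both groups.

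Of 16 circadian clock genes, 3 rose and 2 fell. The clock runs on the activators CLOCK and BMAL1, the latter encoded by *Arntl*, which bind the E-box CACGTG in promoters of their own repressors and of output genes. *Ciart*, a repressor of the CLOCK-BMAL1 complex, had intensities of 65.3, 88.6, 81.5 and 131 in sham DKO hearts and a lowest, median and highest value of 346, 431 and 541 after TAC. Its 3 probes rose by 2.27, 2.19 and 1.40 (adjusted p = 2.41e-07, 1.53e-07 and 6.7e-07). *Dbp*, an output transcription factor of the clock, was at 706, 1785, 2140 and 2739 in sham and between 3915 and 5840 in TAC DKO hearts, a rise of 1.57 (standard error 0.31, adjusted p = 0.000465). *Per2* rose by 0.97, from 197 to 282 to 350 to 758, and its second probe had 0.48 and was not called. *Arntl* was at 409, 288, 255 and 173 in sham and between 54.8 and 78.1 in TAC DKO hearts and fell by 2.10 (standard error 0.23, adjusted p = 2.14e-07). *Nr1d2* fell by 1.42, whereas *Clock* (-0.15) and *Per1* (0.48) did not pass and *Cry1* was near background. Among the sham DKO arrays, replicate 1 had the lowest *Ciart* and *Dbp* and the highest *Arntl*, and replicate 4 the reverse. The hour at which tissue was taken is not given in the sources used here, so hour and surgery cannot be told apart.

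The upstream window of *Ciart* is shown as that of the largest clock rise. It lies at chr3:95882229-95882478 on the minus strand of GRCm38.p6, from RefSeq, with each CACGTG, which reads the same on both strands, in capitals.
Ciart: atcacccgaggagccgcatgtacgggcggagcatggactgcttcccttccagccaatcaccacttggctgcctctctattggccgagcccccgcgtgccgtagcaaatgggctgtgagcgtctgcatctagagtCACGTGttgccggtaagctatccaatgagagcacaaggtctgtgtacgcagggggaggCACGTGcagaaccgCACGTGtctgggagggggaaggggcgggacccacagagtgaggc
It holds 3 of these E-boxes, and 6.02% of 32851 such windows hold at least 1. The window of *Dbp*, at chr7:45704997-45705246 on the plus strand, holds 0.

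**Figure D3:**
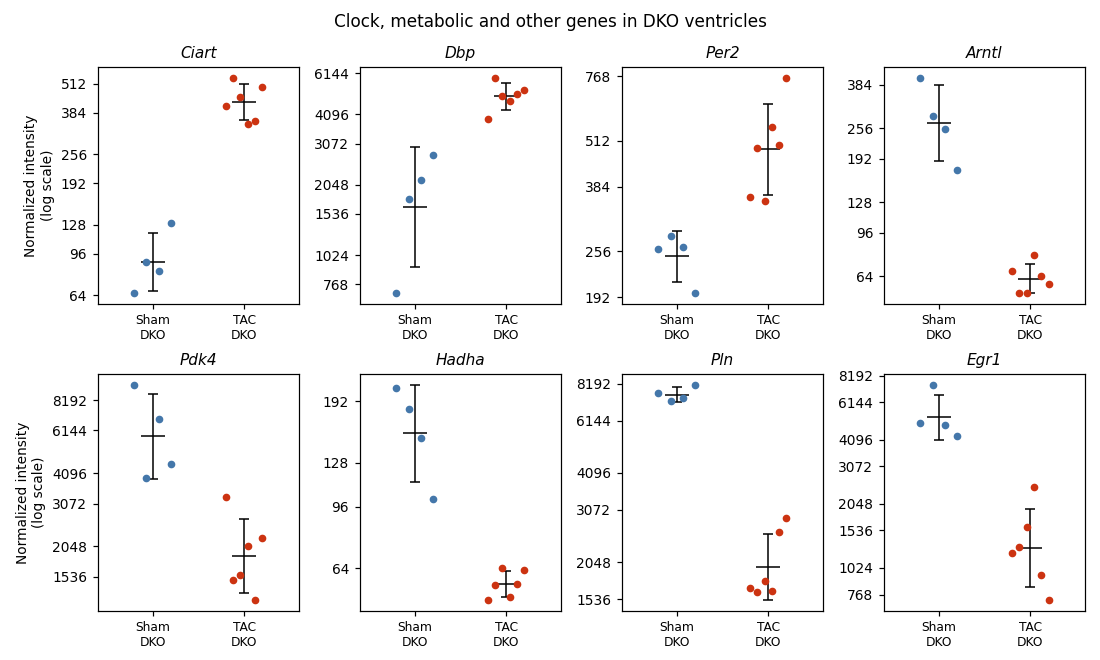
Normalized intensity on a log scale of 4 clock genes (upper row) and of *Pdk4*, *Hadha*, *Pln* and *Egr1* (lower row) in 4 sham DKO and 6 TAC DKO hearts. Points are arrays, the bar and whiskers are mean and SD of the log2 values. *Ciart*, *Dbp* and *Per2* were higher and the other 5 genes lower after TAC, without overlap.

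Of the targeted genes, *Dnmt3a* had intensities of 48.4, 43.3, 45.3 and 45.3 in sham and of 47.6 to 51.6 in TAC DKO hearts, near background in both groups, so that no fold is given. *Dnmt3b* was at 104, 105, 106 and 91.3 in sham and at 98.3 to 130 in TAC DKO hearts, against 112 ± 4.25 in sham CTL hearts (SD, n = 4). Its log2 fold change in DKO hearts was 0.11 (adjusted p = 0.305). Where these probes lie relative to the deleted exons is not given in the sources used here, so they do not check the deletion. Of 18 genes of the DNA methylation machinery only *Tet1*, which oxidizes methylcytosine, passed. It was at 71.1, 82.2, 81.7 and 67.6 in sham and between 114 and 159 in TAC DKO hearts, a rise of 0.82 (standard error 0.11, adjusted p = 3.91e-06) that was not called when arrays were centred on their median or 50 was added to each intensity. *Dnmt1* had -0.18 and its partner *Uhrf1* 0.31, and neither passed.

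Of 33 cardiac transcription factors, 7 rose and 3 fell. *Sox9* (1.13), *Sox4* (0.95), *Prrx1* (0.80) and *Vgll2* (0.84, a call lost without any of 6 single arrays) rose, and *Srf*, *Hopx* and *Hand2* fell by 0.77, 0.70 and 0.61. *Gata4* (-0.46), *Nkx2-5* (0.05) and *Tbx5* (0.01) did not pass. Of 30 cell cycle genes, the cyclin *Ccnd2* (1.15) and the inhibitor *Cdkn1c* (0.97) rose and *Cdkn1a* and *Pcna* fell, by 0.71 for *Cdkn1a*, a call lost without any of 3 single arrays, and by at least 0.19 for *Pcna*, which was near background after TAC. *Top2a* (0.02) was not called. In the lists of chemokines and cytokines (28 genes), complement and coagulation (17) and interferon response (31), 4, 3 and 3 genes rose and 1, 2 and 2 fell. *Lcn2*, an iron-binding lipocalin, rose by 1.31 and complement *C4b* by 1.27. *Thbd*, thrombomodulin, and *Tfpi*, both anticoagulants, fell by 1.24 and 1.04, and *Ccl7* (-0.996) fell as well. *C4b* and *C4a* are near-identical copies, and a probe may bind the RNA of both. *Il1b* (0.07) did not pass, *Il6* was near background in both groups and *Ccl2* after TAC. Of 36 genes of cytoskeleton and adhesion, 4 rose and 4 fell, led by the integrin-like *Itgbl1* (1.37) and by *S100a10* (-1.39). Of 20 imprinted genes, *Cdkn1c* (0.97) and *Peg3* (0.69) rose and *Ube3a* (-1.67) and *Nap1l5* (-1.25) fell, although a second *Ube3a* probe had 0.14.

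In CTL hearts, compared on arrays of their own, TAC raised 798 probes (1.76%) and lowered 1541 (3.4%). Of the probes that rose in DKO hearts, 626 also rose in CTL hearts, which is 56.1% of the DKO and 78.4% of the CTL rises. Of those that fell in DKO hearts, 1430 also fell in CTL hearts, 73.9% of the DKO and 92.8% of the CTL falls. The change in CTL hearts had the same sign for 1115 of the 1116 higher and 1929 of the 1934 lower probes. Both comparisons run between the same separately normalized sets. A test of the difference between the TAC effects called 1 probe lower (0.00221% of those tested) and 0 higher by limma (0%). Of the 45281 probes, 2132 had an unadjusted limma p under 0.05, no more than this threshold passes by chance alone. *Acta1* rose by 2.26 in CTL and 1.80 in DKO hearts, *Nppa* by 2.24 and 1.32, *Comp* by 3.20 and 2.96 and *Col1a1* by 1.56 and 1.17. The adjusted p of these differences was between 0.939 and 0.981. *Nppa* had a sham mean of 11639 in DKO and of 5431 in CTL hearts, and TAC means of 27794 and 24948. Its smaller rise in DKO hearts thus went with a higher sham level, not with a lower level after TAC. *Pln* fell by 1.64 in CTL and by 1.93 in DKO hearts (adjusted p of the difference 0.946).

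**Figure D4:**
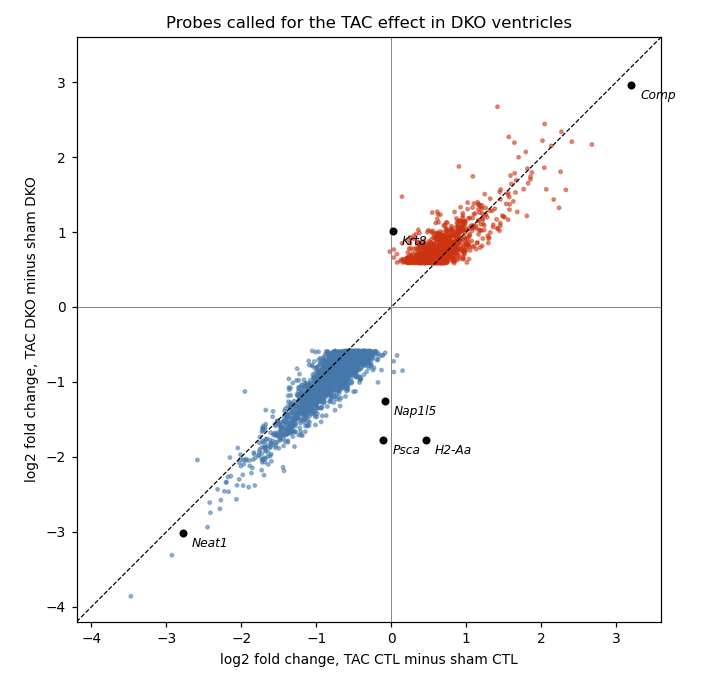
Log2 fold change between TAC and sham in CTL (x axis) and DKO hearts (y axis) of the 3050 probes called in DKO hearts, with the line of equal change dashed. Red probes rose and blue probes fell in DKO hearts, black points are 6 named genes, and *Nap1l5*, *Krt8*, *Psca* and *H2-Aa* lie away from the line.

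The called probe was that of *Nap1l5*, an imprinted gene of the nucleosome assembly protein family. It was at 236, 173, 202 and 186 in sham DKO hearts and between 64.5 and 107 in TAC DKO hearts, with a median of 88.5. The groups did not overlap, and it fell by 1.25 on the log2 scale (standard error 0.12, adjusted p = 3.59e-08). In CTL hearts it was near background in both groups (52.2 ± 5.18, SD, n = 4, and 49.1 ± 5.25, SD, n = 6), so that a fall could not have been measured there and the size of the difference (-1.17, standard error 0.17, adjusted p = 0.0222) is not fixed. Over all settings the adjusted p ranged from 7.25e-05 to 0.0983, and omitting any one of 5 arrays ended the call, namely replicates 1 and 4 of sham CTL, 1 and 3 of sham DKO and 3 of TAC CTL. With sham DKO replicate 1 omitted, *Psca* was called in its place.

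*Krt8*, a keratin of simple epithelia, followed in the order of p. It was at 80.9, 91.8, 100 and 108 in sham DKO hearts and between 161 and 226 in TAC DKO hearts, with a median of 195. It rose by 1.01 (standard error 0.11, adjusted p = 3.78e-07). In CTL hearts it was at 63.3 ± 4.56 (SD, n = 4) and 64.9 ± 12.1 (SD, n = 6), with a log2 fold change of 0.02. Both means lay close to the near-background level of 61.1, where part of a change could be hidden. The difference of 0.99 (standard error 0.16) missed the threshold (adjusted p = 0.0644, range over all settings 0.00217 to 0.842). It was called with a trended, robust variance, with the replicate number as a block, without sham DKO replicate 4, TAC CTL replicate 4 or TAC DKO replicate 2, and without the TAC DKO arrays of high *Myl4*.

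The windows upstream of *Nap1l5*, at chr6:58907127-58907376, and of *Krt8*, at chr15:102004343-102004592, both on the minus strand of GRCm38.p6 and from RefSeq, are shown because CpG cytosines are the substrate of the deleted enzymes. Each CpG is in capitals.
Nap1l5: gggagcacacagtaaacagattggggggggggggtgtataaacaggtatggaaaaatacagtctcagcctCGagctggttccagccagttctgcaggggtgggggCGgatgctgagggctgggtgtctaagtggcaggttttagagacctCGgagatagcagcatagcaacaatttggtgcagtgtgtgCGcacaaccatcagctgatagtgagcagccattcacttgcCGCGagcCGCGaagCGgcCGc
Krt8: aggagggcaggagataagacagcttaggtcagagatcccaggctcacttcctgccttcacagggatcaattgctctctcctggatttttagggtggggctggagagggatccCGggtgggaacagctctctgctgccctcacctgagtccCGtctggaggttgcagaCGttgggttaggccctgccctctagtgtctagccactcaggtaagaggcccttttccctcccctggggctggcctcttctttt
They hold 10 and 3 CpG, where the median of 32851 such windows is 6. Methylation was not measured on these arrays. The authors assayed promoter CpG sites of *Krt8* and other genes by pyrosequencing, in sorted cardiomyocyte nuclei of sham-operated hearts. They report most of these sites as less methylated in DKO than in CTL mice.

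Other genes with a low unadjusted p for the difference were not called for it (adjusted p = 0.939 each), and the values are given as measured. *Bin1* was at 101 to 124 in sham and at 156 to 264 in TAC DKO hearts, with log2 fold changes of 0.85 in DKO and 0.14 in CTL hearts (unadjusted p of the difference 0.000322). *Mocs1*, an enzyme of molybdenum cofactor synthesis, had 0.66 and 0.04, *Tbc1d5* 0.85 and 0.25, the cyclin *Ccnd1* 0.77 and 0.04 with its dimmest of 3 probes, and the neurotrophic factor *Gdnf* 0.74 and -0.02. *Gdnf* was at 104 to 118 in sham and 120 to 243 in TAC DKO hearts, but near background in both CTL groups. In the other direction, the chemokine *Ccl12* had -0.85 in DKO and 0.15 in CTL hearts, the glycosyltransferase *Gcnt1* -0.61 and -0.08, and the small GTPase *Rras2* -1.72 and -1.19. For *Bin1*, *Tbc1d5*, *Ccl12* and *Gcnt1*, only 1 of 2 probes above near-background was called in DKO hearts in the direction given. *Psca* was at 68.4, 643, 335 and 653 in sham DKO hearts and at 75.2 to 114 after TAC, so that sham replicate 1 lay below all TAC values and the other sham arrays above them. *H2-Aa*, a class II histocompatibility chain, was at 799, 323, 468 and 674 in sham and at 94.5 to 277 in TAC DKO hearts. In sham CTL hearts it was at 58.8, 56.7, 409 and 583, so that the sham CTL arrays themselves fell far apart. *Ankrd1*, described above as level in DKO hearts, rose by 0.61 in CTL hearts (adjusted p = 0.00111), with an unadjusted p of 0.00224 for the difference and 0.0102 by a second probe. By the first probe its sham values were already higher in DKO hearts (10760 to 15056) than in CTL hearts (8252 to 9496). After TAC the genotypes overlapped, at 8440 to 14923 in DKO and at 10835 to 15762 in CTL hearts.

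Genes that earlier results of these same arrays placed higher or lower in DKO than in CTL hearts were followed through TAC as well. Of 34 measured, 9 rose and 4 fell in DKO hearts. The list was chosen on these samples and is not independent evidence. The vesicular glutamate transporter *Slc17a7* was at 167, 194, 143 and 185 in sham DKO hearts and between 285 and 443 after TAC, a rise of 1.14 (standard error 0.12, adjusted p = 2.53e-07) against 0.95 in CTL hearts. *Slc9a3*, a sodium/proton exchanger, rose by 1.18 against 0.87 and *Bdh1* by 1.74 against 1.09. *Nrn1* rose by 0.91, and *Stard10* fell by 0.97, *Fgf7* by 0.65 and *Eya1* by at least 0.51. *Tnnt1*, the slow skeletal troponin T, was at 1207 to 1700 in sham and at 1167 to 2804 in TAC DKO hearts, and *Lrtm1* at 548 to 1950 and 538 to 2949. Both overlapped throughout and were not called (0.24 and 0.13), nor was *Aldh1l1*, an enzyme of folate metabolism (0.34).

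**Figure D5:**
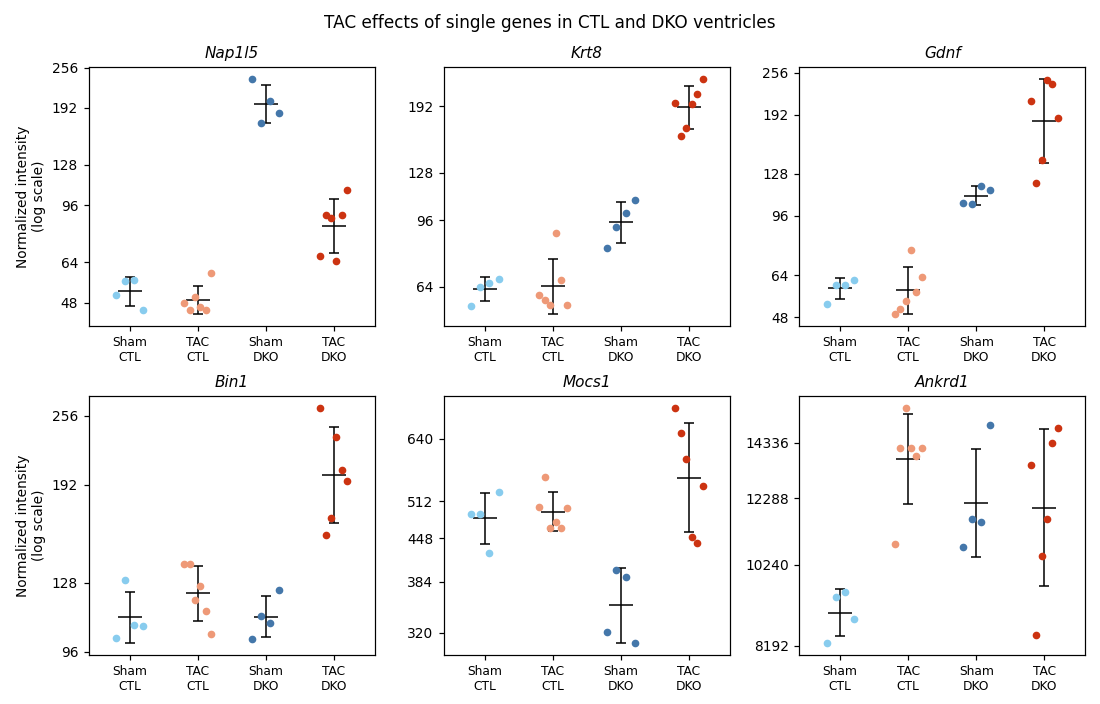
Normalized intensity on a log scale of 6 genes in sham CTL (n = 4), TAC CTL (n = 6), sham DKO (n = 4) and TAC DKO hearts (n = 6). Points are arrays, the bar and whiskers are mean and SD of the log2 values. *Nap1l5* fell and *Krt8* rose in DKO hearts, with CTL hearts near 50 and 64 in both groups, where the near-background level is 61.1.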

How the data were processed

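Left ventricular RNA of 20 mice was hybridised to Illumina bead chips. The authors used GenomeStudio V2010.3, and the deposited values are linear intensities of 45281 probes. Their sorted values were equal to within 0.2% for at least 97.6% of probes among sham arrays and 99.9% among TAC arrays, but for at most 0.413% between them. The sources used here do not state background correction or probe build. Of the probes, 34885 name 1 gene. Values were log2 transformed, quantile normalized over all arrays and fitted with 1 mean per group in limma 3.58.1 (R 4.3.3), with Benjamini-Hochberg adjustment over all probes. The code was tested on simulated data. Near-background is the 95th percentile of 1504 receptor probes. Groups came from the sample labels. The number of arrays limits precision. The members and the 38 gene lists were chosen with earlier results of these data known. Genes were named from the 20 largest rises and 15 largest falls without overlap, up to 4 called genes per direction and the first 6 genes of each list, methylation and genotype genes, and genes of lowest p for the difference, to which some were added after their values were seen. Alternatives covered scaling, offset, dim probes, variance, array weights, replicate block, omitted arrays and call rules.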

Additional observations from a re-analysis of the deposited data

Results flagged for a closer look

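Of 152 sets of values tested, 11 had an array apart from the others by Dixon's test at 95%, made on log2 values. There was 1 set for each DKO group and each gene given with its array values. Chance flags about 1 in 20 sets. In TAC DKO hearts, *Nppa* was lowest on replicate 2 (22438, others 27403 to 29615), *Myh6* and *Atp2a2* were lowest on replicate 1 (9556, others 16375 to 21793, and 20078, others 25318 to 28735), and *Fcer1g* was lowest on replicate 6 (320, others 522 to 620). In sham DKO hearts, *Fhl1* was lowest on replicate 2 (2235, others 2619 to 2706), *Myh6* on replicate 3 (22438, others 24484 to 24869) and *Pdhb* on replicate 1 (2519, others 3200 to 3350). Sham DKO replicate 4 was lowest for *Neat1* (1465, others 2552 to 2842), *Vegfa* (2530, others 4021 to 4287) and *Dnmt3b* (91.3, others 104 to 106). *Myl4* was highest on sham DKO replicate 3 (243, others 191 to 195). For *Nap1l5* the fitted difference between the TAC effects in DKO and CTL hearts was -1.17 on the log2 scale (adjusted p = 0.0222 from limma). Both CTL groups lay near background, where a fall could not be measured, so that this does not show how the TAC effects differ, and the call was lost without any of 5 single arrays.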

How the results depend on the processing

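Of 211 called genes and probes named in DKO hearts, 0 turned direction under any alternative and 127 kept their call under all of them. Centring on the median lost 64 of these calls, an offset of 50 lost 32, centring on the 75th percentile lost 21 and the deposited values lost 19. The median over all probes moved from 0.02 to 0.29 with the deposited values and to 0.26 with the 75th percentile. The probes called higher and lower in DKO hearts, 1116 and 1934, became 204 and 4166 with centring on the median, 627 and 1259 with the offset, 6964 and 5729 without a fold threshold and 174 and 758 at a fold over 2. In CTL hearts, 798 and 1541 became 186 and 3848, 436 and 1003, 5308 and 4636, and 141 and 522 in the same order. Leaving out each array in turn gave 1028 to 1296 higher and 1839 to 2061 lower probes in DKO hearts, 710 to 893 and 1442 to 1611 in CTL hearts, and 0 to 2 probes for the difference between the TAC effects. The difference was called for 2 probes with the replicate block and with the trended, robust variance, and for 3 without the TAC DKO arrays of high *Myl4*, an alternative chosen after seeing the data, as were the counts by every probe. Leaving out single arrays ended some calls of named genes. *Cdkn1a* fell by 0.51 (adjusted p = 0.14) and *Vwf* rose by 0.62 (adjusted p = 0.0923) without sham DKO replicate 1, *Kcnv2* had -0.63 (adjusted p = 0.0526) without the same array, and *Eln* had 0.84 (adjusted p = 0.0505) without sham DKO replicate 4. *Pfkp* (adjusted p up to 0.0637) and *Vgll2* (up to 0.152) lost theirs without any of 5 and 6 arrays. *Hopx* (-0.55) and *Ctsk* (0.57) fell below the fold threshold without TAC DKO replicate 4, *Ednrb* (0.54) and *Fgf7* (-0.55) without sham DKO replicate 1, and *Pcna*, *Acvr2a*, *Igfbp3*, *Ppargc1b*, *Kcnh2*, *Cacnb2*, *Hand2* and *Gcnt1* without any of several arrays. Of the lists, 10 changed the sign of their median with centring on the median, 9 with the deposited values, 8 with the 75th percentile and 6 with the mean over a gene's probes. By every probe above near-background, 10 of 20 collagens rose, 9 of 27 genes of fatty acid oxidation fell and 8 of 21 of the citrate cycle fell. With the replicate block 1406 probes rose and 2158 fell in DKO hearts. Same-numbered sham and TAC DKO arrays deviated from their group means with correlations of -0.01 to 0.13, and 1 of 4 correlated best with its own number. Pairing by number was thus not seen, but 4 numbers are too few to exclude it. Calls of weakly expressed genes are limited by the signal over background.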

Other observations

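Values of 2 genes of chromosome 1, chosen after they were seen, fell into separate levels in sham hearts. *Fcer1g*, a subunit of immunoglobulin receptors, lies at chr1:171229572-171234349 and *Hsd17b7*, an enzyme of cholesterol synthesis, at chr1:169949535-169969242 in GRCm38.p6. *Fcer1g* had intensities of 225, 41.7, 46.3 and 435 on sham DKO replicates 1 to 4, and *Hsd17b7* had 355, 138, 136 and 785. In sham CTL hearts they were at 46.2, 412, 208 and 41.5, and at 117, 871, 555 and 143. Both genes were thus low on the same arrays. In TAC DKO hearts they were at 320 to 620 and at 642 to 1946.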
